A study of Homo sapiens with 12 samples.

Results

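The ATP-binding cassette (ABC) drug efflux transporters were followed in 2 established human pancreatic cancer cell lines grown inside hydrogels. The members were 8 genes chosen by symbol: ABCB1, ABCC1, ABCC2, ABCC3, ABCC4, ABCC5, ABCC10 and ABCG2. Of these, 7 were analysed among the 16299 genes of the expression table, and ABCB1 (P-glycoprotein) was not analysed here. The lines were BXPC3, an epithelial line that has lost SMAD4, and PANC1, a poorly differentiated line. Both had been grown in high glucose DMEM with serum and were embedded in collagen, in 5% gelatin methacryloyl (GelMA, a cross-linkable gelatin) or in 7.5% GelMA. Each of the 6 groups held 2 poly-A RNA sequencing libraries. No drug treatment is named in the labels, each line stands for 1 tumour, and nothing in the labels says that replicates came from separate cultures, so p-values here rest on a spread between replicate libraries that could be purely technical. Since RNA was taken from whole cultures, fewer cells of a kind and less RNA per cell cannot be told apart.

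ABC transporters are membrane proteins that couple ATP hydrolysis to the movement of substrates across a membrane. The multidrug resistance proteins of the ABCC family export organic anions, many of them conjugated to glutathione, glucuronate or sulfate, and ABCG2 is a transporter that works as a dimer and exports a wide range of drugs. Their mRNA is widely measured in pancreatic cancer because export lowers the amount of drug inside the cell; mRNA is not a measure of transport.

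Levels are given as RPKM (reads scaled for transcript length and for mapped reads in the library), which is meant to correct for gene length. The gene lengths used are not known, and the libraries share nearly one set of sorted values. Orders and sums of levels of different genes are therefore approximate. Differences are given on the log2 scale of the deposited values with the standard error (SE) of the fit. Calls were made at an adjusted p below 0.05 from limma, with Benjamini-Hochberg adjustment over 15794 genes, and "rose" or "fell" is used of called genes. The 7 members measured all passed the filter of 1 RPKM in at least 2 libraries. ABCG2 was under 1 RPKM in 1 BXPC3 library, and the other 6 were at or above 1 RPKM in all 12 libraries.

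SMAD4 was at most -5.35 log2 RPKM in BXPC3 and at least 3.94 in PANC1, and replicates of a group correlated across genes at 0.9921 to 0.9948. Of 9 epithelial markers, 2 were higher and 7 lower in PANC1 than in BXPC3. Of 6 tested mesenchymal markers, 3 were higher in PANC1, among them vimentin (VIM, at most 5.78 log2 RPKM in BXPC3 and at least 11.65 in PANC1), and 2 were lower, SNAI2 (at least 7.24 in BXPC3 and at most 0.01 in PANC1) and FN1. Of 6 immune markers, 3 were in the table and their summed level was 5.59 to 23.4 RPKM; the other 3, PTPRC, CD68 and CD79A, were not analysed here. The 4 of 5 endothelial markers in the table summed to 1.96 to 4.22 RPKM. The 3 of 7 fibroblast and stellate markers in the table summed to 8.14 to 10.9 RPKM in BXPC3, to 67.1 to 76.0 in PANC1 in collagen and to 29.5 to 30.6 in PANC1 in GelMA, where COL3A1 fell by 2.62 ± 0.10 log2 and PDGFRA, under 1 RPKM in this line, rose by 1.34 ± 0.20 (0.07 on the log2(RPKM + 1) scale, adjusted p = 0.463). The part of that list in the values of the members was not tested.

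In GelMA against collagen, the effect differed between the 2 lines for 5 of the 7 members, where 39.1% of all genes tested were called. For ABCC10 and ABCG2 it was not shown to differ. In PANC1, ABCC4 and ABCC1 rose most and ABCC2 fell, with smaller rises of ABCC3 and ABCC10. In BXPC3, ABCC4 also rose, ABCC3 and ABCC5 fell, and ABCC1 did not pass the test. Averaged over the 3 matrices, PANC1 had a higher mRNA level than BXPC3 for 6 of 7 members and a lower one for ABCC5. Of all genes tested, 91.8% were called in that comparison (50% higher, 41.9% lower). In collagen alone ABCC3 was lower in PANC1 (122 and 134 RPKM) than in BXPC3 (155 and 141 RPKM), a comparison that was not tested.

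**Figure D1:**
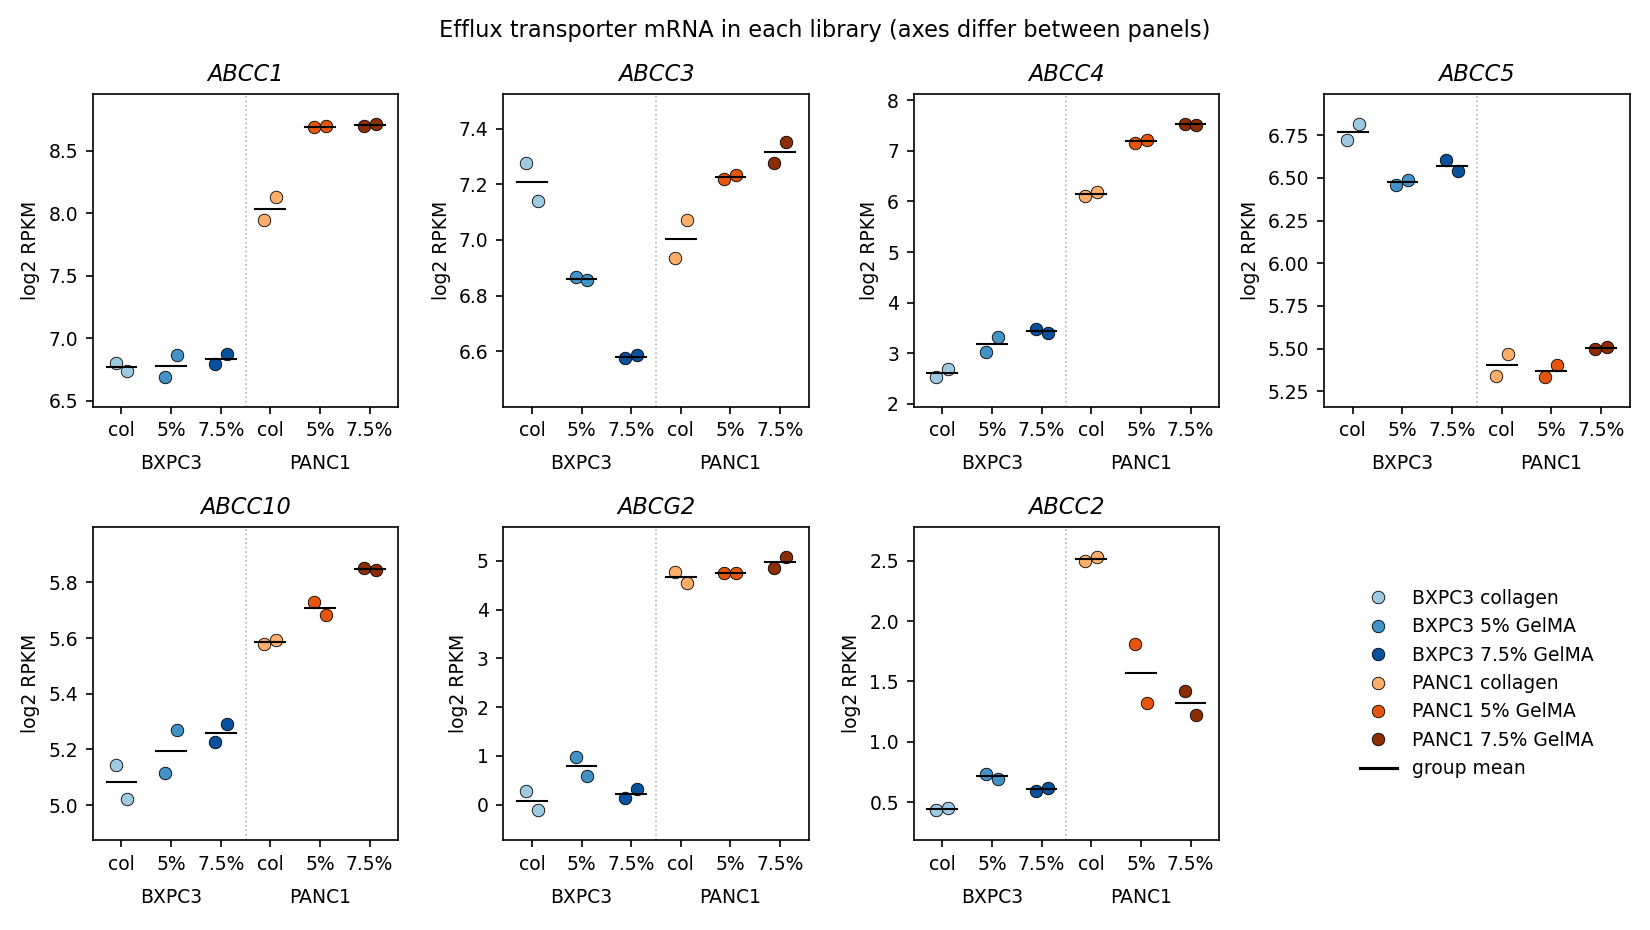
Level of each measured efflux transporter mRNA (log2 RPKM, vertical axis, its range differing between panels) in the 12 libraries, 2 points per group with a line at the group mean, for collagen (col), 5% and 7.5% GelMA in BXPC3 and PANC1. ABCC4 is higher in each GelMA group than in collagen in both lines, ABCC3 moves down in BXPC3 and up in PANC1, and ABCC2 is highest in PANC1 in collagen.

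In BXPC3, 2 of 7 members rose in GelMA (mean of 5% and 7.5%) against collagen, 2 fell and 3 did not pass, where 36.1% of all genes tested were called (19.4% higher, 16.7% lower). Of the 2 rises, that of ABCG2 was not firm. Its GelMA and collagen libraries overlapped, and on the log2(RPKM + 1) scale it did not pass in limma (adjusted p = 0.087). In PANC1, 4 rose, 1 fell and 2 did not pass, where 55.1% were called (27.7% higher, 27.4% lower). The median log2 difference of the 7 was 0.14 in BXPC3 and 0.20 in PANC1, beside 0.01 and -0.01 over all genes tested, and the median size without sign was 0.25 and 0.27, beside 0.18 over all genes in BXPC3 and 0.28 in PANC1. The effect itself differed between the lines for 5 of 7 members (4 higher and 1 lower in PANC1), where 39.1% of all genes were called (18.5% higher, 20.6% lower). No test over the list was made.

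ABCC4 (MRP4; ENSG00000125257, chromosome 13, 95019829 to 95301475, minus strand) exports cyclic nucleotides, prostaglandins and nucleotide analogues. Its level in BXPC3 was 5.79 and 6.41 RPKM in collagen, 8.16 and 9.97 in 5% GelMA, and 11.1 and 10.6 in 7.5% GelMA. PANC1 libraries held 68.9 and 72.5 RPKM in collagen, 143 and 149 in 5% GelMA, and 186 and 182 in 7.5% GelMA. No GelMA library overlapped the collagen libraries of its line, and the lowest PANC1 library lay above the highest BXPC3 library. Such separation was common among the 15794 genes tested. GelMA and collagen libraries did not overlap for 8209 genes in BXPC3 and 9728 in PANC1, beside 4 and 5 of the 7 members. The libraries of the 2 lines did not overlap for 11349 genes, beside 6 of the 7 members. ABCC4 rose in GelMA by 0.70 ± 0.08 log2 in BXPC3 (1.62-fold, adjusted p = 0.000124) and by 1.21 ± 0.08 in PANC1 (2.32-fold, adjusted p = 7.81e-07). The rise was larger in PANC1, by 0.52 ± 0.11 log2 (adjusted p = 0.00358). Both rises and their difference were called under each alternative that was run.

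Within PANC1, ABCC4 was higher in 7.5% than in 5% GelMA by 0.34 ± 0.09 log2 (1.26-fold, adjusted p = 0.0237), the 1 member of 7 called in that comparison, where 18.7% of all genes were called (9.16% higher, 9.56% lower). Its 2 libraries at 7.5% lay above those at 5%, and 10454 of the 15794 genes tested had no overlap in this comparison. This call was lost when any 1 of the 4 PANC1 GelMA libraries was left out, with adjusted p of 0.13 and 0.0807 without 5% GelMA replicate 1 and 2, and of 0.111 and 0.0899 without 7.5% GelMA replicate 1 and 2. In BXPC3 the same difference was 0.26 ± 0.09 (adjusted p = 0.366) and did not pass. The difference between the lines in this step was 0.08 ± 0.12, with a 95% interval of -0.20 to 0.35.

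ABCC2 (MRP2; ENSG00000023839, chromosome 10, 99782640 to 99852594, plus strand) is the apical exporter of bilirubin glucuronides in liver. It was among the lowest members in both lines. In PANC1 it was at 5.66 and 5.78 RPKM in collagen, 3.50 and 2.51 in 5% GelMA, and 2.67 and 2.33 in 7.5% GelMA, so that every GelMA library lay below both collagen libraries. It fell by 1.07 ± 0.15 log2 (adjusted p = 0.000213), from 2.52 to a mean of 1.44 log2 RPKM. In BXPC3 it was at 1.35 and 1.37 RPKM in collagen, 1.66 and 1.62 in 5% GelMA, and 1.51 and 1.54 in 7.5% GelMA. The BXPC3 difference of 0.22 ± 0.15 did not pass (adjusted p = 0.303), although the libraries did not overlap, and its 95% interval was -0.13 to 0.56. The effect differed between the lines by -1.29 ± 0.22 (adjusted p = 0.00112), the largest difference between lines among the 7. At this level, near 1 RPKM in BXPC3, the log2 difference depends on the offset used before the log, and on the log2(RPKM + 1) scale the PANC1 difference was -0.85 (adjusted p = 2.6e-05).

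ABCC2 and ABCC4 moved in opposite directions in PANC1, and their promoters are shown for that reason. The sequences are the 250 bases before the RefSeq start (GRCh38.p14), 5′ to 3′ on the gene's strand, with the core GCGTG, or CACGC on the other strand, in capitals. That core, with ACGTG, belongs to the site bound by hypoxia-inducible factors, and GCGTG also to that of the aryl hydrocarbon receptor.
ABCC2, chr10:99782390-99782639, plus strand: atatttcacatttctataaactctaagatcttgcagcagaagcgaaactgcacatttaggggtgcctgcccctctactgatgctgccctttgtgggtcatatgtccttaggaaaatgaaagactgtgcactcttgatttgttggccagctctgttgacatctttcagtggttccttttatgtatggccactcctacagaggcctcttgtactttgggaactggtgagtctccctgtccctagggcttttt
ABCC4, chr13:95301452-95301701, minus strand: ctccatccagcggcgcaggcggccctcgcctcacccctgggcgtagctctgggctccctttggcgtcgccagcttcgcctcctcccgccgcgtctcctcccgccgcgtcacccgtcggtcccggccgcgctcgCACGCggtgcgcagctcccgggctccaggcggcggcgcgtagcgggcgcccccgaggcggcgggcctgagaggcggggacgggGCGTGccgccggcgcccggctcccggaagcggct

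The ABCC4 window had a GC content of 80.4% and 42 CpG dinucleotides, more CpG than 98.6% of 35116 windows of the same length. The ABCC2 window had a GC content of 45.6% and 1 CpG, and 6.1% of windows had fewer. Searched on both strands, GCGTG occurred at 2 places in the ABCC4 window and at 0 in the ABCC2 window, and 32.22% of all windows held it. ACGTG was in neither window and in 18.51% of all windows. The motif TGACNNNGC, the core of the NRF2 site, had 1 match for ABCC4 and 0 for ABCC2, with 10.91% of all windows holding it. TATAAA had 1 match for ABCC2 and 0 for ABCC4, with 10.72% of windows holding it. A match describes letters and not a bound site.

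Of the 7 members, 5 had a promoter window in the RefSeq table. The ABCC5 window had a GC content of 64.8%, 21 CpG and 0 matches to GCGTG or ACGTG. ABCC10 had 2 windows, of which 1 held 2 matches to each of these cores and the other 0. ABCG2 had 5 windows, 3 of them with 2 matches to GCGTG, and 2 of these 3 also had 2 matches to ACGTG. These 3 windows partly overlap, so their matches are not all separate. Of these 5 genes, ABCC4, ABCC10 and ABCG2 had a window with GCGTG, and binding was not measured. The 32.22% of all windows with GCGTG counts single windows, and a gene with several windows has more places for a match. The share of all genes with a match was not counted, so nothing is read from this.

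ABCC1 (MRP1; ENSG00000103222, chromosome 16, 15949577 to 16143074, plus strand) exports glutathione conjugates and anthracyclines. In PANC1 it was at 246 and 279 RPKM in collagen, 413 and 414 in 5% GelMA, and 414 and 421 in 7.5% GelMA. It rose by 0.66 ± 0.06 log2 (1.59-fold, adjusted p = 7.49e-06), and all 4 GelMA libraries lay above both collagen libraries. The GelMA concentrations differed by 0.01 ± 0.07 log2, with a 95% interval of -0.14 to 0.16. In the 4 PANC1 GelMA libraries 98.4% of genes lay below ABCC1, and 5% GelMA replicate 2 and 7.5% GelMA replicate 1 held the same value and the same rank (265). The libraries share nearly one set of sorted values, so equal ranks give equal levels.

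In BXPC3, ABCC1 was at 111 and 107 RPKM in collagen, 103 and 117 in 5% GelMA, and 111 and 117 in 7.5% GelMA. These libraries overlapped, the difference was 0.04 ± 0.06 (adjusted p = 0.65), and its 95% interval of -0.09 to 0.17 lay below the size of the PANC1 rise. The effect differed between the lines by 0.63 ± 0.08 (adjusted p = 0.000238).

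ABCC3 (MRP3; ENSG00000108846, chromosome 17, 50634777 to 50692252, plus strand) is a basolateral exporter of glucuronides and bile salts. It was at 155 and 141 RPKM in BXPC3 in collagen, 117 and 116 in 5% GelMA, and 95.3 and 96.1 in 7.5% GelMA. The PANC1 levels were 122 and 134 RPKM in collagen, 149 and 151 in 5% GelMA, and 155 and 163 in 7.5% GelMA. The gene fell in BXPC3 by 0.49 ± 0.05 log2 (adjusted p = 7.04e-05) and rose in PANC1 by 0.27 ± 0.05 (1.20-fold, adjusted p = 0.000823), without overlap of GelMA and collagen libraries in either line. It was the 1 member called in opposite directions, and the difference between the lines was 0.76 ± 0.07 (adjusted p = 2.13e-05).

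The concentration step for ABCC3 also differed between the lines. From 5% to 7.5% GelMA it was -0.28 ± 0.05 in BXPC3 (adjusted p = 0.119, unadjusted p = 0.000428) and 0.09 ± 0.05 in PANC1 (adjusted p = 0.295), and neither step passed alone. Their difference of 0.37 ± 0.08 was called (adjusted p = 0.0174), the 1 of 7 members called where 8.97% of all genes were (4.01% higher, 4.96% lower). That call was lost in 7 of 18 alternatives, with adjusted p up to 0.0677 when PANC1 7.5% GelMA replicate 2 was left out and of 0.0581 without the mean-variance trend. It was also lost without BXPC3 5% GelMA replicate 1 (0.0552), without BXPC3 7.5% GelMA replicate 1 (0.063) or 2 (0.051), and without PANC1 5% GelMA replicate 1 (0.0644) or 2 (0.0557).

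**Figure D2:**
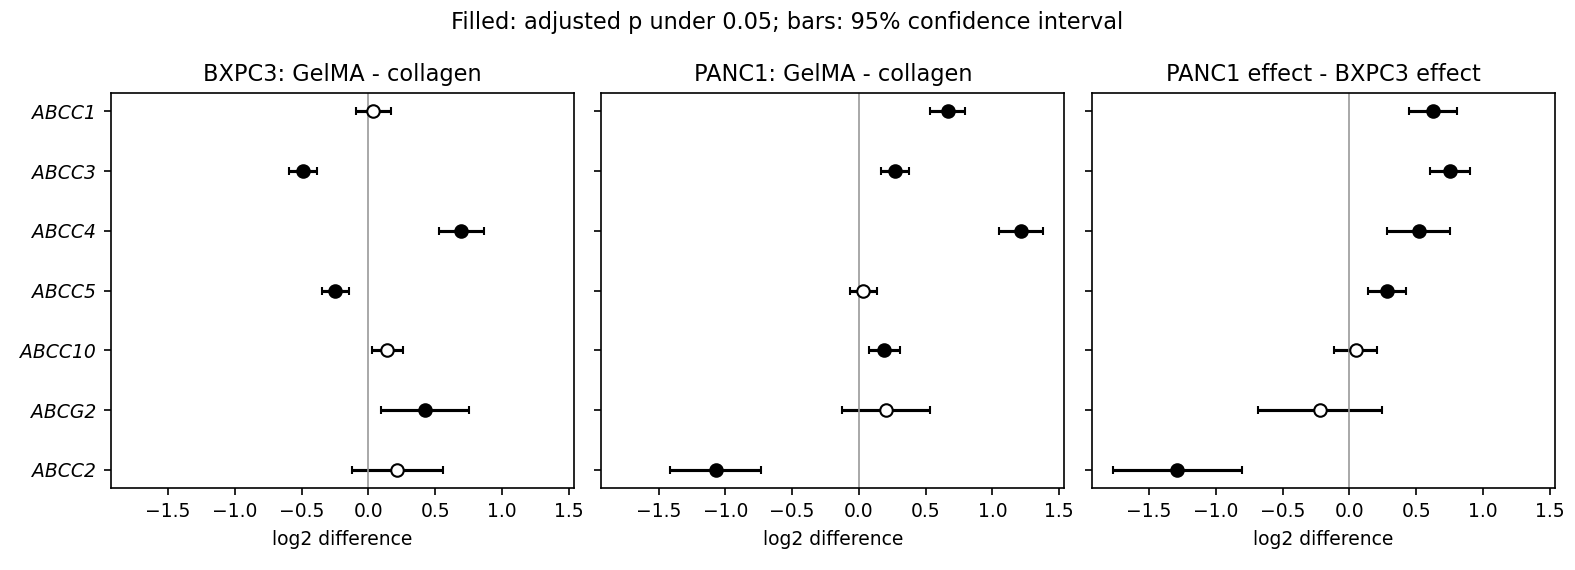
Log2 difference between GelMA (mean of 5% and 7.5%) and collagen for each member in BXPC3 (left) and PANC1 (middle), and the PANC1 effect minus the BXPC3 effect (right). Points are estimates, bars 95% confidence intervals, and filled points have an adjusted p under 0.05; ABCC4 lies to the right of 0 in both lines, and ABCC3 on opposite sides.

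ABCC5 (MRP5; ENSG00000114770, chromosome 3, 183919934 to 184018015, minus strand) exports cyclic nucleotides and nucleotide analogues, as ABCC4 does. In BXPC3 it was at 106 and 113 RPKM in collagen, 88.0 and 89.8 in 5% GelMA, and 97.3 and 92.9 in 7.5% GelMA, each GelMA library below both collagen libraries. It fell by 0.25 ± 0.05 log2 (adjusted p = 0.00226). Levels in PANC1 were 40.5 and 44.2 RPKM in collagen, 40.4 and 42.3 in 5% GelMA, and 45.2 and 45.5 in 7.5% GelMA, and the difference was 0.03 ± 0.05 (adjusted p = 0.55, 95% interval -0.07 to 0.13). The lines differed in this effect by 0.28 ± 0.06 (adjusted p = 0.0063). ABCC5 overlaps the antisense gene ABCC5-AS1 on the opposite strand, which was not analysed here. Without a known strand setting, reads from that overlap cannot be assigned.

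ABCC10 (MRP7; ENSG00000124574, chromosome 6, 43427366 to 43450430, plus strand) exports taxanes and other lipophilic drugs. In PANC1 it was at 47.8 and 48.3 RPKM in collagen, 53.1 and 51.4 in 5% GelMA, and 57.8 and 57.5 in 7.5% GelMA. It rose by 0.19 ± 0.05 log2 (1.14-fold, adjusted p = 0.00932), a call lost without PANC1 collagen replicate 1 (adjusted p = 0.0534). In BXPC3 it was at 35.4 and 32.5 RPKM in collagen, 34.7 and 38.6 in 5% GelMA, and 37.4 and 39.2 in 7.5% GelMA, and the difference of 0.14 ± 0.05 did not pass (adjusted p = 0.0516). That difference lay on the other side of the threshold in 4 of 19 alternatives, among them without BXPC3 collagen replicate 1 (adjusted p = 0.0296) and without BXPC3 5% GelMA replicate 1 (0.0171). The effect of GelMA on ABCC10 was not shown to differ between the lines (0.05 ± 0.07, adjusted p = 0.63, 95% interval -0.11 to 0.21). The gene overlaps DLK2 on the opposite strand, and without a known strand setting reads from the overlap cannot be assigned.

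ABCG2 (BCRP; ENSG00000118777, chromosome 4, 88090264 to 88231322, minus strand) exports topotecan, mitoxantrone and urate. In PANC1 it was at 27.4 and 23.3 RPKM in collagen, 27.0 and 27.1 in 5% GelMA, and 29.1 and 33.8 in 7.5% GelMA, and the difference between GelMA and collagen was 0.20 ± 0.15 log2 (adjusted p = 0.269). In BXPC3 it was at 1.21 and 0.924 RPKM in collagen, 1.96 and 1.51 in 5% GelMA, and 1.10 and 1.24 in 7.5% GelMA. The BXPC3 difference of 0.42 ± 0.15 was called at adjusted p = 0.0475, but the libraries overlapped and the call was lost in 15 of 18 alternatives (adjusted p 0.0215 to 0.359). On the log2(RPKM + 1) scale it was 0.24 (adjusted p = 0.087), and without BXPC3 collagen replicate 2 it was 0.23 (adjusted p = 0.359). Between the lines the effect differed by -0.22 ± 0.21 (adjusted p = 0.434, 95% interval -0.69 to 0.24).

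Each GelMA concentration was also set against collagen. These comparisons share the collagen libraries of the line, so their calls are not independent of each other or of the pooled comparison. In BXPC3 at 5% GelMA, 4 of 7 members were called where 29.9% of all genes were (16.1% higher, 13.7% lower): ABCG2 (0.70 ± 0.17) and ABCC4 (0.57 ± 0.09) rose, and ABCC3 (-0.35 ± 0.05) and ABCC5 (-0.30 ± 0.05) fell. The ABCG2 call was lost without BXPC3 collagen replicate 2 (adjusted p = 0.0831) or BXPC3 5% GelMA replicate 1 (0.0876), and when the line was fitted alone (0.0699). At 7.5%, where 29.8% of all genes were called (16.1% higher, 13.7% lower), ABCC4 (0.83 ± 0.09) and ABCC10 (0.18 ± 0.06) rose, and ABCC3 (-0.63 ± 0.05) and ABCC5 (-0.20 ± 0.05) fell. The ABCC5 call at 7.5% was lost without BXPC3 collagen replicate 2 (adjusted p = 0.115) or BXPC3 7.5% GelMA replicate 2 (0.12), and the ABCC10 call in 13 of 19 alternatives (adjusted p up to 0.262, with a difference of 0.11, without BXPC3 collagen replicate 2).

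In PANC1 at 5% GelMA, 4 members were called where 46.2% of all genes were (23% higher, 23.2% lower): ABCC4 (1.05 ± 0.09), ABCC1 (0.66 ± 0.07) and ABCC3 (0.22 ± 0.05) rose, and ABCC2 fell by 0.95 ± 0.18. Without PANC1 collagen replicate 1 the adjusted p of ABCC3 was 0.0583. At 7.5%, 5 were called where 53.8% of all genes were (27.2% higher, 26.6% lower): ABCC4 (1.38 ± 0.09), ABCC1 (0.67 ± 0.07), ABCC3 (0.31 ± 0.05) and ABCC10 (0.26 ± 0.06) rose, and ABCC2 fell by 1.20 ± 0.18. In BXPC3 none of the 7 was called between 7.5% and 5% GelMA by limma, where 0.0823% of all genes were called (0.0443% higher, 0.038% lower). ABCC3, ABCG2 and ABCC4 had an unadjusted limma p under 0.05 (adjusted p = 0.119, 0.323 and 0.366). The share of all genes at that unadjusted threshold was not counted, so nothing is read from it.

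Between the lines, averaged over the 3 matrices, 6 of 7 members were higher in PANC1 and 1 was lower, where 91.8% of all genes were called (50% higher, 41.9% lower). ABCG2 had the largest difference, 4.43 ± 0.10 log2 (21.6-fold, adjusted p = 8.54e-12), and ABCC4 followed with 3.88 ± 0.05 (14.7-fold, adjusted p = 2.01e-13). ABCC1 differed by 1.68 ± 0.04 (3.21-fold), ABCC2 by 1.21 ± 0.10, ABCC10 by 0.54 ± 0.03 and ABCC3 by 0.30 ± 0.03, while ABCC5 was lower in PANC1 at -1.18 ± 0.03. For ABCC3 the libraries of the lines overlapped: in collagen both BXPC3 libraries (155 and 141 RPKM) lay above both PANC1 libraries (122 and 134), and in 5% and 7.5% GelMA they lay below. The median of the 7 was 1.21, beside 0.12 over all genes tested.

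The order of the members' levels per length differed between the lines. In BXPC3, ABCC3, ABCC1 and ABCC5 were the 3 highest in every matrix. ABCC3 was first in collagen, above ABCC5 and ABCC1, whose ranges overlapped. In 5% GelMA the ranges of ABCC3 and ABCC1 overlapped, and in 7.5% GelMA ABCC1 was first and the ranges of ABCC3 and ABCC5 overlapped. ABCC10 and ABCC4 came next, and ABCC2 and ABCG2 were lowest, their ranges overlapping in 5% GelMA. In PANC1, ABCC1 was highest and ABCC2 lowest in every matrix. ABCC3 lay above ABCC4 in collagen, their ranges overlapped in 5% GelMA, and ABCC4 lay above ABCC3 in 7.5% GelMA, with ABCC10, ABCC5 and ABCG2 in that order below them.

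The summed level of the 7 members was 409 ± 9.95 RPKM (SD, n = 2) in BXPC3 in collagen, 364 ± 13.6 in 5% GelMA and 357 ± 2.89 in 7.5% GelMA. In PANC1 it was 583 ± 34.9 RPKM in collagen, 833 ± 5.82 in 5% GelMA and 898 ± 10.4 in 7.5% GelMA (each n = 2). The GelMA libraries lay below the collagen libraries in BXPC3 and above them in PANC1, and the sum is given with no test. ABCC1 made up 26.6% to 32.7% of the sum in BXPC3 libraries and 44.0% to 49.8% in PANC1 libraries. ABCC4 made up 1.39% to 3.12% in BXPC3 and 11.9% to 20.9% in PANC1, and ABCC5 24.0% to 28.1% and 4.87% to 7.27%.

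**Figure D3:**
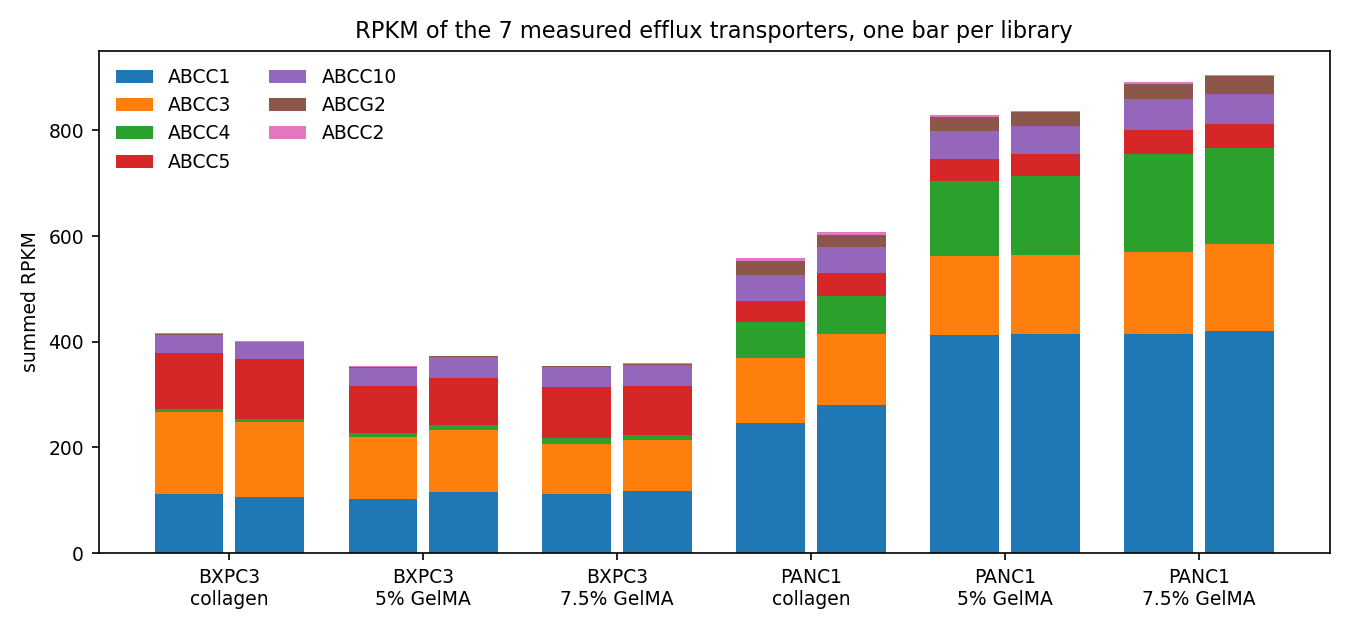
Summed RPKM of the 7 measured efflux transporters (vertical axis, from 0), 1 bar per library and 2 bars per group, coloured by gene. The BXPC3 bars lie between 355 and 416 RPKM and the PANC1 bars between 559 and 905, and the ABCC1 and ABCC4 segments are larger in PANC1 GelMA than in PANC1 collagen.

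As a description, the tested gene most alike in pattern to each member was found by Pearson's r over the 12 libraries after each line's mean was removed; the points share the 6 groups, so a shared response to the matrix gives a high r. For ABCC4 it was GOT2 (r = 0.98), for ABCC1 MTA2 (r = 0.99), for ABCC2 CD82 (r = 0.99), for ABCC3 NID1 (r = 0.98), for ABCC5 MSLN (r = 0.95), for ABCC10 NOL6 (r = 0.96) and for ABCG2 CYSTM1 (r = 0.96). Among the members themselves, the highest r on the same measure was between ABCC4 and ABCC10 (0.87), and the lowest between ABCC1 and ABCC2 (-0.89). Over the 6 libraries of a line, ABCC3 and ABCC4 had an r of -0.96 in BXPC3 and of 0.95 in PANC1.

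Other ABC transporters were read from a list of 40 genes, of which 29 were in the table and 28 were tested. In GelMA against collagen, 7 rose and 3 fell in BXPC3 (35.7% called, beside 36.1% of all genes, median 0.05), and 12 rose and 6 fell in PANC1 (64.3%, beside 55.1%, median 0.15). The largest called changes in PANC1 were of ABCA13 (1.40 ± 0.06), ABCB6, a porphyrin transporter (-0.94 ± 0.18), and ABCA12, a lipid transporter of keratinocytes (-1.47 ± 0.23). ABCA12 was under 1 RPKM in all PANC1 groups, and on the log2(RPKM + 1) scale its difference was -0.14 and did not pass (adjusted p = 0.214); that of ABCB6 was -0.57 and stayed called. In BXPC3 they were of ABCA9 (0.83 ± 0.23), ABCA10 (-0.57 ± 0.14) and ABCA3, a surfactant lipid transporter (-0.47 ± 0.08). ABCA9 was at 0.39 (adjusted p = 0.211) without BXPC3 collagen replicate 2, at 1.28 without BXPC3 collagen replicate 1, and lost its call without BXPC3 7.5% GelMA replicate 1 (0.0536). ABCA10 lost its call without BXPC3 collagen replicate 2 (0.0968), and ABCA3, under 1 RPKM in this line, was at -0.15 on the log2(RPKM + 1) scale and lost its call when the line was fitted alone (0.135). For the difference of the GelMA effect between lines, 6 of the 28 were called higher in PANC1 and 5 lower (39.3%, beside 39.1% of all genes).

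**Figure D4:**
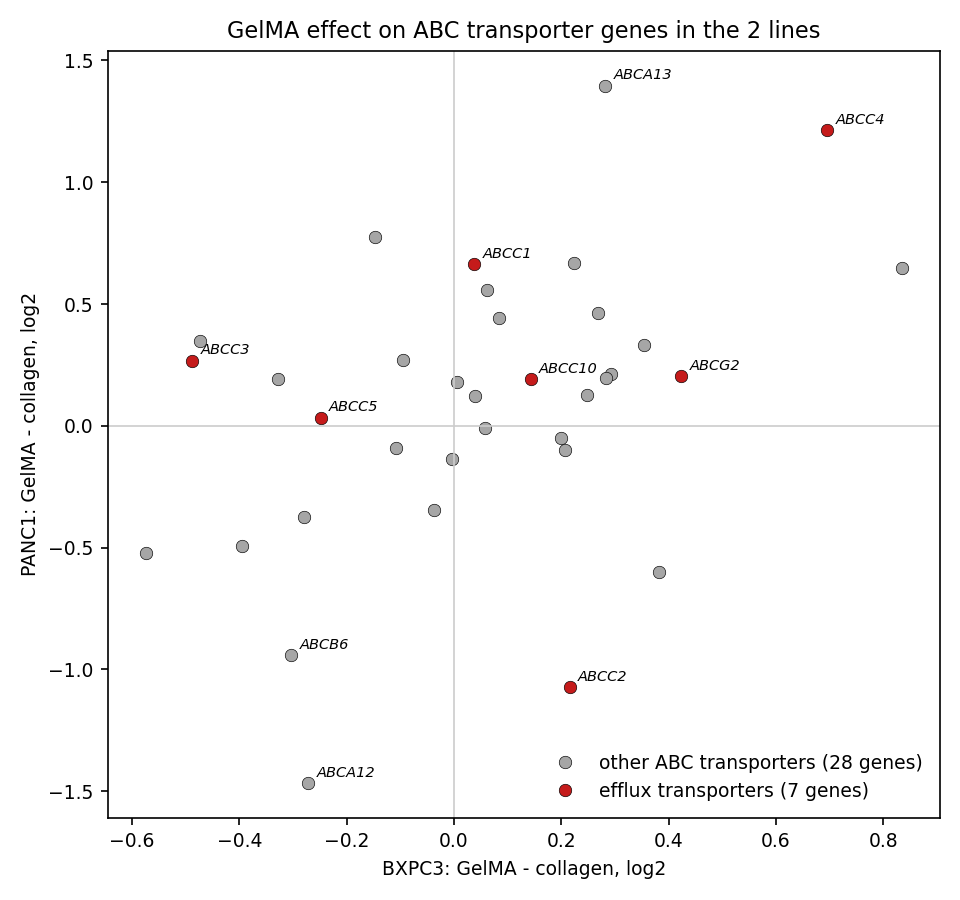
Log2 difference between GelMA and collagen in BXPC3 (horizontal axis) and PANC1 (vertical axis) for the 7 efflux transporters (red) and 28 other ABC transporter genes tested (grey), 1 point per gene; the lines have separate libraries. ABCC4 lies at the upper right (0.70 and 1.21), ABCC3 at the left above 0, and ABCC2 low on the right (0.22 and -1.07).

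Genes that act with the efflux pumps were counted from lists written from textbook knowledge, and each list's share called is to be read beside the 36.1% of all genes called in BXPC3 and the 55.1% called in PANC1. Of 18 tested regulators of efflux genes, 4 rose and 4 fell in BXPC3 (44.4%), and 7 rose and 8 fell in PANC1 (83.3%). The largest changes in BXPC3 were rises of HIF1A (0.58 ± 0.08) and the RNA and DNA binding protein YBX1 (0.44 ± 0.06) and a fall of the nuclear receptor PPARG (-0.42 ± 0.08). In PANC1 they were rises of HIF1A (1.00 ± 0.08) and AHR, the aryl hydrocarbon receptor (0.66 ± 0.05), and a fall of the nuclear receptor PPARA (-0.53 ± 0.09).

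Of 22 tested genes of glutathione synthesis, conjugation and breakdown, 5 rose and 4 fell in BXPC3 (40.9%), and 5 rose and 8 fell in PANC1 (59.1%). Synthesis and conjugation supply ABCC substrates, and these counts do not separate them from breakdown. In BXPC3, CHAC1, which degrades glutathione, rose by 0.62 ± 0.11, and GCLM, the modifier subunit of the first enzyme of glutathione synthesis, by 0.47 ± 0.09. GSTM2, a glutathione transferase, was at -0.65 ± 0.23 (adjusted p = 0.049), a call lost in most alternatives, with adjusted p of 0.025 to 0.162 when a library was left out. In PANC1 the cystine carrier SLC7A11 (-1.52 ± 0.13) and CHAC1 (-1.43 ± 0.11) fell, and GGT1, which cleaves glutathione outside the cell, rose (1.30 ± 0.16).

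Of 9 tested genes of glucuronidation and sulfation, 0 passed in BXPC3 by limma, with 0 at an unadjusted p under 0.05, and 2 rose and 2 fell in PANC1 (44.4%). PAPSS2, which makes the sulfate donor, rose by 1.08 ± 0.10, and UGDH, which makes UDP-glucuronate, by 0.86 ± 0.07. UGT1A6 was called lower (-0.71 ± 0.25), but it was far under 1 RPKM in PANC1, shares exons with the other UGT1A genes, and was at -0.0052 on the log2(RPKM + 1) scale (adjusted p = 0.969).

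Of 21 tested drug uptake and exchange carriers, 6 rose and 0 fell in BXPC3 (28.6%), led by the copper carrier SLC31A2 (0.71 ± 0.14), the folate carrier SLC19A1 (0.54 ± 0.08) and SLCO4A1 (0.41 ± 0.09). In PANC1, 5 rose and 3 fell (38.1%). The prostaglandin carrier SLCO2A1 rose by 1.78 ± 0.29 (0.97 on the log2(RPKM + 1) scale), and SLCO1B3, an organic anion carrier of liver that was under 1 RPKM here, fell by 1.49 ± 0.34 (-0.30 on that scale). SLCO4A1 fell in this line by 0.75 ± 0.09. Of 8 tested scaffolds of membrane pumps, 3 rose and 4 fell in BXPC3 (87.5%), where caveolin (CAV1, -0.37 ± 0.03) and FLOT2 (-0.26 ± 0.04) fell and moesin (MSN, 0.32 ± 0.03) rose. In PANC1, 2 rose and 4 fell (75%), with CAV1 at -1.23 ± 0.03, FLOT1 at -0.42 ± 0.06 and ezrin (EZR) at 0.31 ± 0.03.

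Hypoxia response genes summed to 5017 to 6511 RPKM in BXPC3 in collagen and 2692 to 2860 in GelMA, with 22 of 25 lower and 0 higher (88% called, beside 36.1% of all genes). In PANC1 they summed to 9738 to 9991 in collagen and 2821 to 4241 in GelMA, with 24 lower and 0 higher (96%, beside 55.1%). Of 14 tested NRF2 targets, 8 rose and 0 fell in BXPC3 (57.1%), and 2 rose and 9 fell in PANC1 (78.6%). For the 9 epithelial markers the BXPC3 share was near that of all genes, with 3 higher and 0 lower (33.3%, beside 36.1%). In PANC1, 7 of them rose and 1 fell (88.9%, beside 55.1%). Of the 13 mitochondrially encoded genes, 1 was higher and 1 lower in BXPC3 (15.4%, beside 36.1%), and 8 rose and 0 fell in PANC1 (61.5%, beside 55.1%). Their median difference between 7.5% and 5% GelMA was 0 in both lines. The libraries share nearly one set of sorted values, which holds the levels of very high genes. These shares are therefore not a measure of the amount of mitochondrial RNA. The part of hypoxia, NRF2 activity, epithelial state or mitochondrial RNA in the values of the efflux members was not tested.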

How the data were processed

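RNA was captured by poly-A selection, per the labels' protocols. The authors deposited 1 table of log2 RPKM values (length- and library-scaled reads, on the log2 scale) for 16299 genes and 12 libraries. The submitters' processing notes name HISAT2 2.1.0, HTSeq and GRCh38 (hg38); for their settings, the annotation, the strand setting, the gene lengths and any offset before the log, nothing is given in the sources used here. From the values, the libraries looked quantile normalized: after sorting, 13917 ranks held values equal within 0.05 log2 in all libraries. Such scaling removes any difference in total expression between libraries. The table holds no counts, so depth is unknown and no counting interval could be given.

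Gene IDs were matched to symbols with a gene name table (16250) and GENCODE 29 (49), which also gave the positions. The fit was limma 3.58.1 in R 4.3.3 on the deposited log2 values, with 1 mean per group, a mean-variance trend, 6 residual and 3.89 prior degrees of freedom, over 15794 genes that reached 1 RPKM in 2 or more libraries (505 left out), with Benjamini-Hochberg adjustment. The fit was tested on simulated data. GelMA means the average of the 5% and 7.5% groups. All members in the table are named. From each list, only called genes among the 3 with the largest changes per line could be named, and for the lists of genes that act with the pumps and of other ABC transporters all of them are; markers of the cell lines are named as checks. The gene most alike in pattern to each member is also named. The members and lists were chosen with earlier results of these data known. Alternatives were log2(RPKM + 1), no filter, 1 RPKM in all 12 libraries, no trend, each line alone, median centring, a replicate block, and each library left out in turn.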

Additional observations from a re-analysis of the deposited data

Results flagged for a closer look

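These results were singled out because the effect of the matrix differed between the lines in a test of the difference itself (limma, PANC1 effect minus BXPC3 effect, adjusted over all genes). For GelMA against collagen the difference was 0.63 log2 for ABCC1, -1.29 for ABCC2, 0.76 for ABCC3, 0.52 for ABCC4 and 0.28 for ABCC5. ABCC3 was called in opposite directions in the lines, ABCC4 rose in both, ABCC1 and ABCC2 passed within PANC1 and did not pass within BXPC3, and ABCC5 passed within BXPC3 and did not pass within PANC1. For 7.5% against 5% GelMA the difference was 0.37 log2 for ABCC3. Groups of 2 libraries were too small to look for libraries that stand apart.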

How the results depend on the processing

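Of 77 member comparisons, 40 were called, and 32 of these were called in the same direction under all alternatives that were run for them. Among the 32 were ABCC4 and ABCC3 in GelMA against collagen in both lines. The comparisons share libraries, and the share of all genes called ran from 0.0823% to 91.8% between them. The count of 40 is therefore no result about the members. The count of members called moved by over 1.5 times in 3 comparisons, and the cause was not tested. Between 7.5% and 5% GelMA in PANC1 (1 called) it was 0 without the mean-variance trend, 2 with each line fitted alone, and 0 to 1 with a library left out. For the difference of that step between lines (1 called) it was 0 without the trend and 0 to 2 with a library left out. For 7.5% GelMA against collagen in BXPC3 (4 called) it was 2 to 4, with 2 without BXPC3 collagen replicate 2 or 7.5% GelMA replicate 2.

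Signs changed for uncalled values near 0. With a library left out, GelMA against collagen ranged from -0.0052 to 0.0809 log2 for ABCC1 in BXPC3, from -0.0304 to 0.0982 for ABCC5 in PANC1, and from -0.0141 to 0.111 for the ABCC10 difference between lines. The 7.5% minus 5% step in BXPC3 ranged from -0.028 to 0.144 for ABCC1 and from -0.0096 to 0.142 for ABCC10. Its difference between lines ranged from -0.131 to 0.0413 for ABCC1, -0.383 to 0.0997 for ABCC2, -0.0692 to 0.219 for ABCC4 and -0.001 to 0.151 for ABCC10. At 5% GelMA against collagen the range was -0.0773 to 0.0948 for ABCC1 in BXPC3 (-0.004 with median centring), -0.0195 to 0.212 for ABCG2 in PANC1 and -0.098 to 0.0307 for ABCC5 in PANC1. At 7.5% it was -0.0485 to 0.339 for ABCG2 in BXPC3.

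The count over all genes fell from 5703 to 3623 in GelMA against collagen in BXPC3 without BXPC3 collagen replicate 2. It moved from 4720 to 3047 (without BXPC3 collagen replicate 2) or 3134 (without BXPC3 5% GelMA replicate 1) at 5%, and from 4701 to 2610 at 7.5% (without BXPC3 7.5% GelMA replicate 2). For the 7.5% minus 5% step it was 13 in BXPC3 (0 to 33 over the alternatives), 2956 in PANC1 (1449 to 1746 without any 1 PANC1 GelMA library), and 1417 for the difference (941 without the trend, 659 to 873 without one of the GelMA libraries that moved it).

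Replicate differences of groups correlated across genes at -0.048 to 0.077, so no pairing by replicate number was seen on this measure. A low r cannot exclude a shared batch, on which the labels say nothing. With a replicate block ABCG2 in GelMA against collagen in BXPC3 (0.42, adjusted p = 0.0594) and ABCC10 at 7.5% in BXPC3 (0.18, adjusted p = 0.081) lost their calls, and no other member call changed. With at least 1 RPKM required in all 12 libraries ABCG2 was not tested. With a library left out, its group's lone library was assumed to vary like the other groups. Depth is unknown, so the precision of low members (ABCC2, and ABCG2 in BXPC3) could be read only from 2 libraries.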
